A study of Mus musculus with 221 samples.

Results

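Mef2c, Nell2, Ntm, Ralyl, Camk2b, Fam19a2, Msra, Gap43, Syt5 and Serp2 are 10 of the 23244 features measured in 221 single cells of embryonic mouse cortex. They were selected with earlier results of the same cells known, as maturation genes that vary together in the excitatory lineage, so their co-variation within cells with Neurod6 at 100 TPM (transcripts per 1000000, normalised for length) or more is described here without a test. All cells came from the medial neocortex of C57BL/6J embryos at stage E18.5, with no treatment and no mutation. The tissue of 8 embryos was pooled before dissociation, and 2 such pools gave 122 and 99 cells, which were captured on a microfluidic chip and sequenced one by one. The pool was the replicate throughout, so that p-values rest on the spread between the means of 2 pools of pooled embryos. This spread includes the sampling of cells within each class of a pool, and no single embryo can be followed.

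The genes are known from several sides of neuronal maturation. Mef2c is a MADS-box transcription factor that works in cortical neurons under the control of calcium signals and takes part in their differentiation and synapse formation. Growing projection neurons send out axons whose growth cones are rich in Gap43, attach through surface proteins such as neurotrimin (Ntm), answer to secreted guidance cues such as Nell2, and later read calcium at synapses through kinases such as calcium/calmodulin-dependent kinase II (CaMKII), of which Camk2b encodes the beta subunit. The transcription factor Neurod6 is used by neurons of the excitatory lineage from shortly after their birth and was taken here as its marker. Some cells with radial glia or interneuron genes on also reached 100 TPM of Neurod6.

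Cells were sorted into 4 classes by gates on genes outside the 10, with a gene taken as on at 100 TPM. The excitatory neuron gate held 134 cells (71 in pool 1 and 63 in pool 2), the newborn neuron gate with Eomes or Neurod1 on held 28, the radial glia gate with at least 3 of 8 progenitor genes on held 32, and the interneuron gate with at least 3 of 8 GABAergic genes on held 22. The remaining 5 cells stayed ungated, and no cell met both of the last 2 gates. Within the excitatory gate Neurod6 had a median of 1694 TPM and Neurod2 was above the floor in 130 cells, whereas the vesicular glutamate transporter genes Slc17a6 and Slc17a7 were above it in 52 and 25 cells. The 8 interneuron genes summed to a median of 0 TPM above the floor in the excitatory gate (range 0 to 606), and the 8 radial glia genes to a median of 123.5 TPM (range 0 to 3241). Read depth is unknown. Every cell's lowest value, 1.33 to 2.998 TPM, is shared by the features without signal, and a gene was counted as detected above this floor. The median number of features above the floor was 4036 in the excitatory gate, 4072 in the newborn gate, 4692 in the radial glia gate and 3298 in the interneuron gate. Neurod6 reached 100 TPM in 194 cells, among them all 28 of the newborn gate, 22 of the radial glia gate and 10 of the interneuron gate, so that the classes overlap with the cells in which the 10 genes had been selected.

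The 10 genes lie on 9 mouse chromosomes (GRCm38, GENCODE annotation), and only Msra and Serp2 share one, chromosome 14. Mef2c occupies chr13:83504034-83667080 on the plus strand, and Nell2 occupies chr15:95075230-95528559 on the minus strand. They are long genes: 6 of the 10 (Mef2c, Nell2, Ntm, Ralyl, Fam19a2 and Msra) span more than 100 kb from start to end, compared with 15.2% of the 9427 matched genes detected in 10 cells or more. Their median span was 248 kb, against 25.6 kb over those genes, with Ntm the longest at 968 kb and Syt5 the shortest at 7.8 kb. The level of each gene in TPM is already divided by transcript length.

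RefSeq promoter windows (GRCm38.p6) were at hand for 5 of the 10 genes, at 9 annotated starts. The 250 bases before each start were searched on both strands for CAGATG, a form of the E-box bound by NeuroD factors, and for the MEF2 site by name. CAGATG was found at 2 of the 9 starts (1 of 3 starts of Mef2c and the 1 start of Fam19a2), compared with 14.4% of 32851 windows of all genes. The MEF2 site was found at 0 of the 9 starts, compared with 2.92% of all windows. The windows of 3 starts are printed 5′ to 3′ in the direction of transcription, in lower case with CAGATG in capitals. The pair from Mef2c shows how its alternative starts differ, and the one from Camk2b stands for the opposite base composition.
Mef2c, distal start, chr13:83503784-83504033, plus strand: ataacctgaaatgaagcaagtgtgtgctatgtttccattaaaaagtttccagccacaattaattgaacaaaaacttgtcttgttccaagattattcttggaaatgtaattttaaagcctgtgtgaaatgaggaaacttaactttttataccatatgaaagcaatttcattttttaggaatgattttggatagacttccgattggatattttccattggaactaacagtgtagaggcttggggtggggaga
Mef2c, internal start, chr13:83573357-83573606, plus strand: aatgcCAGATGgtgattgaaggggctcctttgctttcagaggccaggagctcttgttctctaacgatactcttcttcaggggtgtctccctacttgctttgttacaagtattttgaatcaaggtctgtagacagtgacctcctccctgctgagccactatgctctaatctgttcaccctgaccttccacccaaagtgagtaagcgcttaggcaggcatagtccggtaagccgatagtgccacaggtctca
Camk2b, chr11:6065749-6065998, minus strand: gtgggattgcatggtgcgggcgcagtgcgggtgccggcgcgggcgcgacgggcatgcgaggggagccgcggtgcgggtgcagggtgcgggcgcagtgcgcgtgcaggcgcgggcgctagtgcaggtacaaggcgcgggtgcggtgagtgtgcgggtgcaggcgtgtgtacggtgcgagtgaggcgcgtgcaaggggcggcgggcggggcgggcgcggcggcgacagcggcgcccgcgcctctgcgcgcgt
The CAGATG of the internal Mef2c window begins 245 bases before the start. The distal Mef2c window had 33.6% G and C and the Camk2b window 78.4%, with a median of 52.4% over all windows. The expression table gives 1 value per gene, so it does not tell which start a cell used.

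Mef2c was widely detected in all 4 classes. Outside the excitatory gate it was above the floor in 21 of 28 newborn, 24 of 32 radial glia and 20 of 22 interneuron gate cells. It ranged from 1.56 to 783 TPM with a median of 91.4 TPM in the 134 cells of the excitatory gate, was above the floor in 116 of them (86.6%, exact 95% interval 79.6 to 91.8%) and reached 100 TPM in 66. The newborn gate had a median of 26.4 TPM (range 1.48 to 224), the radial glia gate a median of 14.3 TPM (1.40 to 627) and the interneuron gate a median of 175 TPM (1.86 to 559.7). The highest median was therefore that of the interneurons, and the ranges of all 4 classes overlapped. As means of the pool means, Mef2c stood at 174 ± 30.9 TPM in the interneuron gate, 157 ± 25.8 TPM in the excitatory gate, 57.6 ± 12.5 TPM in the newborn gate and 56.3 ± 36.4 TPM in the radial glia gate (SD, n = 2 pools). Interneurons and excitatory neurons were closer to each other than these standard deviations, and so were the newborn and radial glia gates, while the step between the pairs was larger. The 5 ungated cells ranged from 2.29 to 598 TPM.

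Nell2, a secreted glycoprotein with EGF-like repeats that guides axons, followed another order. Its median was 128 TPM in the excitatory gate (range 1.47 to 829), 15.9 TPM in the newborn gate (1.48 to 563.5), 2.40 TPM in the radial glia gate (1.37 to 438) and 2.10 TPM in the interneuron gate (1.66 to 149). It was above the floor in 104 of 134 excitatory gate cells (77.6%, interval 69.6 to 84.4%) and in 7 of 22 interneuron gate cells (31.8%, interval 13.9 to 54.9%). The pool means averaged 157 ± 5.83 TPM in the excitatory gate, 111 ± 6.18 TPM in the newborn gate, 63.2 ± 38.6 TPM in the radial glia gate and 14.6 ± 13.4 TPM in the interneuron gate (SD, n = 2 pools). Each step of this order was larger than the standard deviations of the classes on either side.

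Neurotrimin (Ntm), a surface protein of the IgLON family, was seen in most excitatory gate cells, some of them at low values. Fam19a2, a small secreted protein of a chemokine-like family, was seen in the fewest excitatory gate cells of the 10. Ntm had a median of 102 TPM in the excitatory gate (range 1.58 to 1034), against 9.002 TPM in the newborn gate, 4.90 TPM in the radial glia gate and 2.12 TPM in the interneuron gate. It was detected in 119 of 134 excitatory gate cells, of which 91 reached 10 TPM and 67 reached 100 TPM, and the rest of the detected cells lay nearer the floor. Fam19a2 was detected in 57 of the 134 (42.5%), with a highest value of 437 TPM and a median at 2.01 TPM because most cells were at the floor. Where it was detected in the excitatory gate, its median was 91.5 TPM. It was above the floor in 8 of 28 cells of the newborn gate, 6 of 32 of the radial glia gate and 5 of 22 of the interneuron gate.

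Gap43, the growth cone protein, was the most abundant of the 10 on the TPM scale. Its median was 674 TPM in the excitatory gate (range 1.79 to 7016), 259 TPM in the newborn gate (1.75 to 2735), 191 TPM in the radial glia gate (1.40 to 694) and 207 TPM in the interneuron gate (2.01 to 1301). It was above the floor in 129 of 134 excitatory, 24 of 28 newborn, 30 of 32 radial glia and 21 of 22 interneuron gate cells, so its classes differed in level more than in detection. Syt5, a calcium-binding vesicle protein of the synaptotagmin family, had a median of 116 TPM in the excitatory gate (range 1.61 to 929), against 4.01 TPM in the newborn gate, 2.98 TPM in the radial glia gate and 4.83 TPM in the interneuron gate. Of the 108 excitatory gate cells with Syt5 above the floor, 82 reached 10 TPM. Syt5 was also above the floor in 22 of 28 newborn, 25 of 32 radial glia and 17 of 22 interneuron gate cells. Camk2b had a median of 51.7 TPM in the excitatory gate (range 1.33 to 406) and was detected in 83 of its 134 cells. In the other gates Camk2b was detected in 9 of 28 newborn, 13 of 32 radial glia and 6 of 22 interneuron cells, and its median was at 1.93 to 2.03 TPM.

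Ralyl, an RNA-binding protein related to Raly, was split between cells at the floor and cells well above it. It was detected in 93 of 134 excitatory gate cells (69.4%), of which 66 had 100 TPM or more, and its median there was 92.8 TPM (range 1.33 to 994). In the other gates Ralyl was detected in 16 of 28 newborn, 14 of 32 radial glia and 9 of 22 interneuron cells. Msra, the reductase that repairs oxidised methionine, had medians of 385 TPM in the excitatory gate (range 1.33 to 2404), 248 TPM in the newborn gate, 109 TPM in the radial glia gate and 9.04 TPM in the interneuron gate. Serp2, a small protein of the endoplasmic reticulum related to Serp1, was detected in the most excitatory gate cells of the 10, 131 of 134 (97.8%, interval 93.6 to 99.5%). Its medians were 393 TPM in the excitatory gate (range 1.47 to 1256), 196 TPM in the newborn gate, 37.9 TPM in the radial glia gate and 33.7 TPM in the interneuron gate. The intervals cover counting error over cells only.

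In the excitatory gate the order of the pool means on the TPM scale was Gap43 (1042 ± 62.4), Msra (521 ± 34.1), Serp2 (426 ± 32.7), Ntm (202 ± 8.94), Syt5 (183 ± 36.7), Mef2c (157 ± 25.8), Nell2 (157 ± 5.83), Ralyl (151 ± 6.26), Camk2b (80.8 ± 22.6) and Fam19a2 (48.0 ± 10.2; SD, n = 2 pools). Neighbours from Ntm to Ralyl did not differ beyond the larger of their standard deviations. The other steps were larger. A cell of the excitatory gate had a median of 8 of the 10 genes above the floor (range 2 to 10), and 21 of 134 had all 10. The median was 7 in the newborn gate, where 0 of 28 cells had all 10, 6.5 in the radial glia gate and 5 in the interneuron gate.

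**Figure D1:**
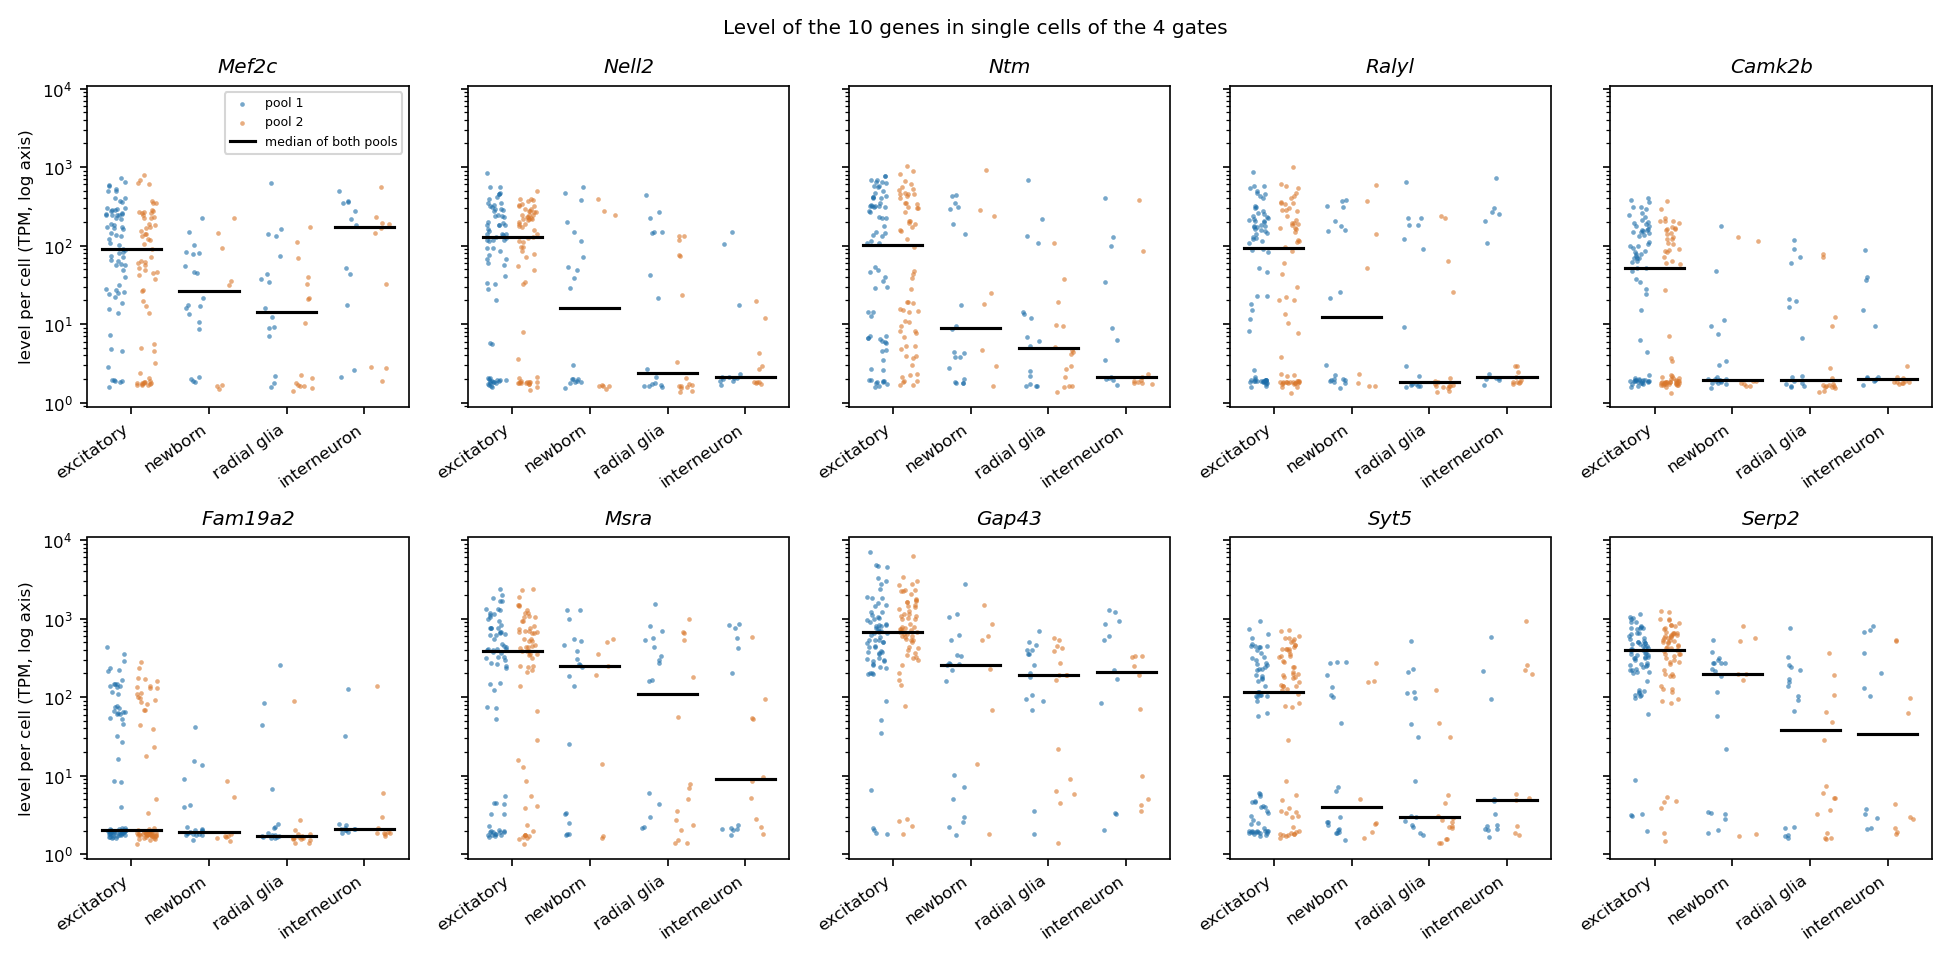
Level of each gene per cell (TPM, log axis) in the excitatory, newborn, radial glia and interneuron gates, 1 point per cell, coloured by pool, with the median of both pools as a black line. The medians are highest in the excitatory gate for 8 genes and lie near the floor in all gates for Fam19a2, whereas Mef2c has its highest median, 175 TPM, in the interneuron gate.

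The first comparison set the excitatory gate against the radial glia gate, a class of progenitors by its gate genes. Neurod6 had a median of 323 TPM in the radial glia gate. The 5 excitatory markers (Neurod6, Neurod2, Slc17a6, Slc17a7 and Tbr1) summed there to a median of 438.6 TPM above the floor, against 1943 TPM in the excitatory gate. The part of this signal in the result was not tested. All 10 genes were higher in value in the excitatory gate than in the radial glia gate, and 3 rose past the threshold, an adjusted p below 0.05 in limma together with a log2 difference of at least 1. Of the 10726 genes tested, 0.382% were called higher and 2.6% lower. Serp2 averaged 8.03 and 8.06 in the excitatory gate in pools 1 and 2, against 5.65 and 3.78 in the radial glia gate, as mean log2(TPM + 1). The difference was 3.33 ± 0.69 (SE, adjusted p = 0.0208), larger in pool 2 (4.28) than in pool 1 (2.39). Ntm averaged 5.85 and 5.63 in the excitatory gate, against 3.76 and 2.75 in the radial glia gate, a log2 difference of 2.49 ± 0.62 (adjusted p = 0.0421). Gap43 averaged 8.82 and 9.20 in the excitatory gate, against 7.14 and 6.24 in the radial glia gate, a log2 difference of 2.32 ± 0.57 (adjusted p = 0.0402). The 3 genes were higher in the excitatory gate in both pools.

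The other 7 genes did not pass. Mef2c had a log2 difference of 1.84 ± 0.62 between the excitatory and radial glia gates (adjusted p = 0.157), with 1.63 in pool 1 and 2.04 in pool 2. Nell2 had 2.05 ± 0.59 (adjusted p = 0.0822), and Ralyl, Camk2b, Fam19a2, Msra and Syt5 had differences of 1.36 to 2.11 with adjusted p of 0.124 to 0.41. Msra (0.21 in pool 1 and 2.86 in pool 2) and Syt5 (0.72 and 3.49) differed in size between the pools. Over the 10 genes the median log2 difference was 1.94, against -0.05 over all genes tested, and 9 of 10 had an unadjusted p below 0.05, as did 13.4% of all genes. The 10 were chosen as maturation genes in Neurod6 cells, which include the whole excitatory gate. Their values as a set are therefore a description, and the choice may affect the p-values of single genes. The 3 calls were lost with classes averaged before taking logs (adjusted p of 0.183 for Serp2, 0.207 for Ntm and 0.125 for Gap43), with gates at 200 TPM (0.185, 0.199 and 0.128) and among the cells between the quartiles of features above the floor (0.372, 0.382 and 0.567), where the differences were still 4.32, 2.21 and 2.09. Ntm and Gap43 also lost their calls with gates at 50 TPM (adjusted p of 0.149 and 0.0726) and with the floor subtracted (0.065 and 0.0556), and Gap43 with pool and suffix as the unit (0.11). Cells with suffix A in their name, whose meaning the labels do not give, made up 76 of 134 in the excitatory gate and 24 of 32 in the radial glia gate, and the part of this imbalance in the result was not tested beyond taking pool and suffix as the unit, under which Serp2 and Ntm were called. The 4 oligodendrocyte precursor markers summed to a median of 0 TPM above the floor in the excitatory gate (range 0 to 283) and 10.3 TPM in the radial glia gate (0 to 2226). Microglial markers were seen in 4 of 134 excitatory gate cells, with a highest sum of 52.6 TPM. They were seen in 2 of 32 radial glia gate cells, with a highest sum of 8597 TPM. Haemoglobin genes were seen in 44 of 134 and 10 of 32. The part of all these markers in the result can differ between the gates. Their part in the result was not tested.

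Against interneurons the picture was different for Mef2c. Mef2c averaged 6.32 and 5.47 in the excitatory gate in pools 1 and 2 as mean log2(TPM + 1), with a difference from the interneuron gate of -0.16 ± 0.62 (SE, adjusted p = 0.985), that is, -0.07 in pool 1 and -0.25 in pool 2. A p above the threshold does not show that the classes had the same level. Nell2 rose in the excitatory gate, with a log2 difference of 3.38 ± 0.59 (adjusted p = 0.0155) and values of 3.12 and 3.64 in pools 1 and 2. It was the only one of the 10 called, and 0.298% of the genes tested were called higher and 0.298% lower. Serp2 had 3.13 ± 0.69 (adjusted p = 0.0608), which passed when the pool entered the fit as a block (adjusted p = 0.0451). Gap43 had 2.56 ± 0.57 (adjusted p = 0.0589), and Ntm had 2.55 ± 0.62 (adjusted p = 0.084). The differences of Ralyl, Camk2b, Fam19a2, Msra and Syt5 were 1.20 to 2.33, and none passed. Ralyl (0.67 in pool 1 and 3.38 in pool 2), Msra (1.52 and 3.15) and Gap43 (1.66 and 3.45) differed in size between the pools. Whether Mef2c differs from the other 9 genes in this contrast was not tested. The choice of the 10 may affect the p-values of single genes here too.

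The interneuron gate held 10 cells with Neurod6 at 100 TPM or more. Without these cells Nell2 differed by 3.50 (adjusted p = 0.248) and 0 genes were called in limma, where 15.8% of all genes had an unadjusted p below 0.05. The call of Nell2 was also lost with classes averaged before taking logs (adjusted p = 0.116) and with gates at 200 TPM (adjusted p = 0.252). The interneuron gate had fewer features above the floor than the excitatory gate, and 7 of its 22 cells had suffix A. The 5 excitatory markers summed to a median of 1943 TPM above the floor in the excitatory gate and 88.4 TPM in the interneuron gate. With pool and suffix as the unit, 2 of the 10 genes were called in this comparison. Beyond that fit and the fit without Neurod6 cells, the part of features detected, suffix and excitatory markers in the differences was not tested.

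Newborn neurons, the cells just leaving the progenitor state, had lower values of all 10 genes than the excitatory gate, but none passed. The differences ran from 0.75 for Ralyl to 2.13 ± 0.57 for Gap43 (SE, adjusted p = 0.667), with 1.36 ± 0.62 for Mef2c (adjusted p = 1) and 1.59 ± 0.59 for Nell2 (adjusted p = 1). All 10 were positive in both pools, with sizes that differed for Ntm (1.51 in pool 1 and 0.54 in pool 2), Camk2b (2.72 and 1.15), Ralyl (1.06 and 0.44) and Msra (0.46 and 1.21). limma called 0 genes in all, so that 0% were called higher and 0% lower, and 495 genes (4.62%) had an unadjusted p below 0.05, among them 7 of the 10. The median difference of the 10 was 1.57, against 0.03 over all genes tested. Here too the 10 were chosen in these same cells, so their values as a set are a description. The choice may also affect the p-values of single genes, that of Gap43 below among them. With profiles weighted by their number of cells, a setting chosen after seeing the data, limma called 27 genes and Gap43 was among them (adjusted p = 0.0308). Pool 2 had only 8 newborn cells.

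**Figure D2:**
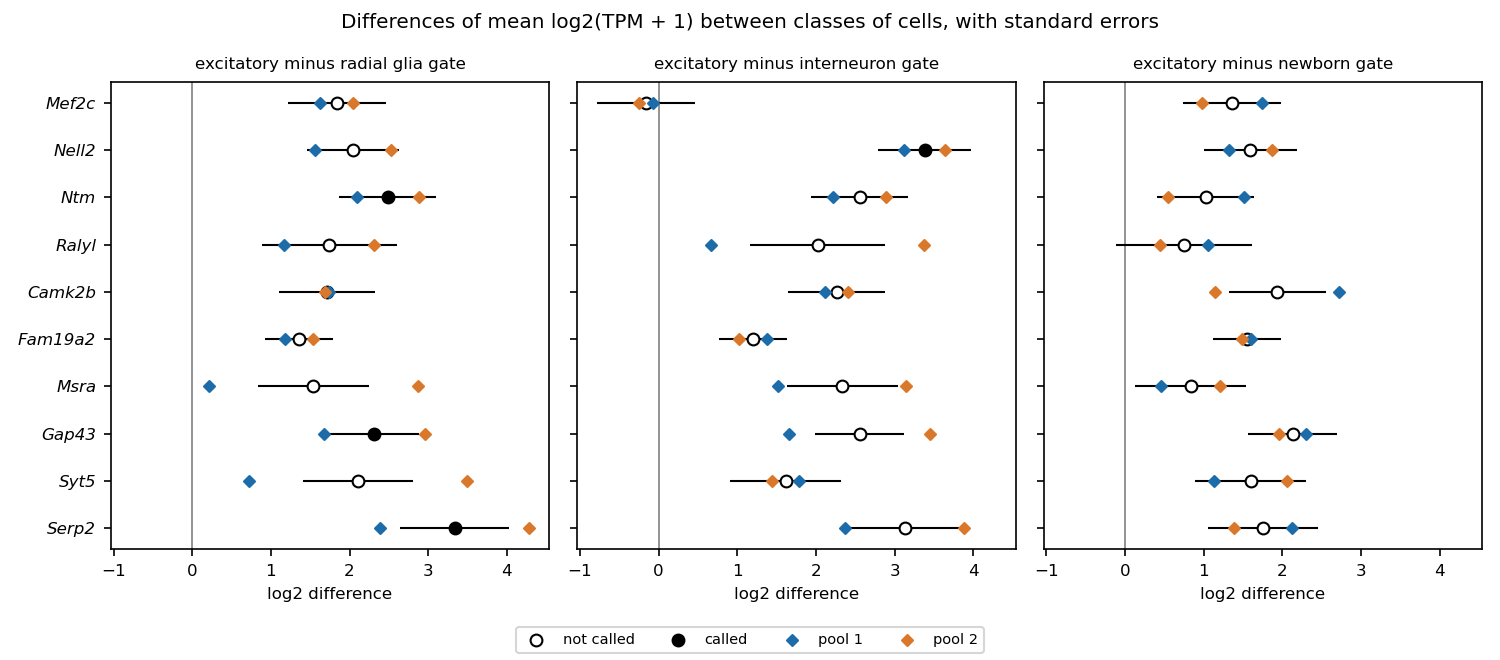
Difference of mean log2(TPM + 1) for each of the 10 genes in 3 comparisons, first class minus second (circles with standard errors, filled where called; diamonds for the value in each pool). Serp2, Ntm and Gap43 are called against the radial glia gate and Nell2 against the interneuron gate, where Mef2c sits at -0.16.

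Other genes of the same pathways were taken from lists put together for these functions, with earlier results of these data known. Between the excitatory and radial glia gates, 0.382% of all genes tested were called higher and 2.6% lower, and 45.8% had positive values. Of 14 axon growth genes, 5 rose in the excitatory gate relative to the radial glia gate and all 14 had positive values (median log2 difference 1.46). The largest were Stmn2, a regulator of microtubules in growth cones (3.52 ± 0.56, adjusted p = 0.00486), Crmp1, a collapsin response mediator (2.72 ± 0.37, adjusted p = 0.00211), and the neuronal tubulin Tubb3 (2.71 ± 0.45, adjusted p = 0.00598). Of 27 synapse and calcium signalling genes 2 rose, the vesicle GTPase gene Rab3a (3.01 ± 0.54, adjusted p = 0.0101) and the SNARE gene Snap25 (2.55 ± 0.63, adjusted p = 0.0414), and 23 had positive values (median 0.64). Of 9 partners and targets of MEF2 factors 1 fell, the immediate early gene Jun (-2.05 ± 0.53, adjusted p = 0.0497), and 2 had positive values (median -0.39). None of the 11 newborn and migrating neuron genes, 9 upper layer genes or 8 deep layer and subplate genes was called.

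Against the interneuron gate, 3 genes of these lists were called, where 0.298% of all genes tested were called in each direction. The glutamate receptor subunit Gria1 fell in the excitatory gate (-3.83 ± 0.66, adjusted p = 0.0155), with a mean of 11.8 TPM in the excitatory gate and 154 TPM in the interneuron gate. The semaphorin receptor Nrp1 rose (2.97 ± 0.61, adjusted p = 0.0449), and so did the axonal adhesion gene Cntn2 (2.60 ± 0.54, adjusted p = 0.0453). Against the newborn gate, 0 genes of any list were called, 13 of 14 axon growth genes had positive values (median 0.57), and 3 of 11 newborn and migrating neuron genes did (median -0.73), compared with 53.6% of all genes tested.

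Relatives of the 10 genes were mostly seen in fewer excitatory gate cells. Mef2a was above the floor in 42 of 134 cells, Mef2d in 24 and Mef2b in 0 (upper limit of the exact interval 2.72%), beside 116 for Mef2c. Among the CaMKII genes Camk2g was detected in 66 cells, Camk2a, the main alpha subunit of the mature forebrain, in 3 and Camk2d in 3, beside 83 for Camk2b. Camk2d fell in the excitatory gate relative to the radial glia gate, with a mean of 4.76 TPM in the excitatory gate and 29.1 TPM in the radial glia gate (log2 difference -1.33 ± 0.29, SE, adjusted p = 0.0262). Nell1 was above the floor in 0 of 134 cells beside 104 for Nell2, and of the TAFA genes Fam19a5 was in 19, Fam19a1 in 5 and Fam19a3 and Fam19a4 in 0. The IgLON relatives of Ntm were seen in fewer cells than its 119, with Opcml in 60, Negr1 in 17, Lsamp in 16 and Iglon5 in 7. Raly was detected in 24 cells beside 93 for Ralyl. Of the other methionine sulfoxide reductase genes, Msrb1 was in 57 cells, Msrb2 in 9 and Msrb3 in 1, beside 112 for Msra.

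The relatives of Gap43 and Syt5 were the exception. Basp1, another growth cone protein, was above the floor in all 134 excitatory gate cells and rose relative to the radial glia gate, with a mean of 700.0 TPM in the excitatory gate and 266 TPM in the radial glia gate (log2 difference 1.86 ± 0.38, adjusted p = 0.0208). Marcks and Marcksl1 were also above the floor in all 134. Of the synaptotagmins, Syt11 was detected in 124 and Syt4 in 123 excitatory gate cells, beside 108 for Syt5, followed by Syt1 in 73, Syt16 in 68, Syt7 in 29, Syt3 in 26 and Syt14 in 21. Syt9 was detected in 6, Syt13 in 3, Syt6 and Syt12 in 2, Syt2 in 1, and Syt10 and Syt17 in 0. Syt1, the main calcium sensor of fast transmitter release, had a mean of 26.3 TPM in the excitatory gate and 110 TPM in the interneuron gate, a log2 difference of -1.96 ± 0.55 that did not pass (adjusted p = 0.18). Serp1 was detected in 83 excitatory gate cells beside 131 for Serp2, and had a difference of -1.57 ± 0.66 from the radial glia gate (adjusted p = 0.295), where Serp2 had 3.33.

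**Figure D3:**
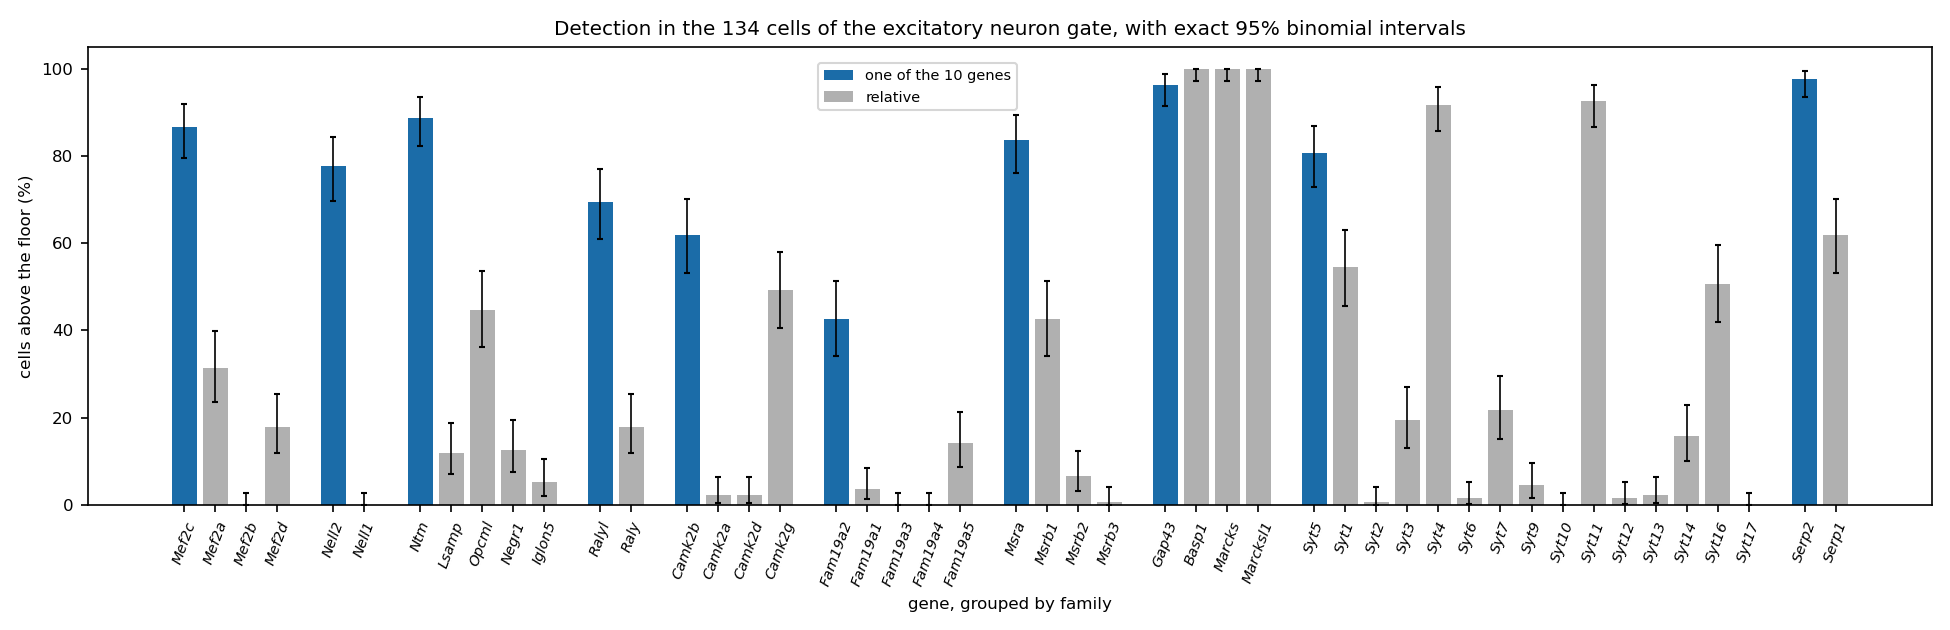
Percentage of the 134 excitatory gate cells with each gene above the floor, grouped by family, for the 10 genes and their relatives (bars start at 0; lines are exact 95% binomial intervals over cells). Mef2c, at 86.6%, stands above Mef2a, Mef2b and Mef2d, while Gap43 and Syt5 have relatives detected as often or more often.

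Within the cells with Neurod6 at 100 TPM or more, 110 in pool 1 and 84 in pool 2, all 45 pairs of the 10 genes had a positive Spearman correlation in each pool. These correlations are what the genes were selected on and are given as a description. In pool 1 the median was 0.24 (range 0.11 to 0.46) and in pool 2 it was 0.28 (0.03 to 0.55). Over all pairs of the 7780 genes with enough cells, 78.0% had a positive correlation in pool 1 and 76.7% did in pool 2, with medians of 0.11 and 0.12. The genes of a cell share its library and its depth. The 194 cells of both pools also mixed classes, with 134 of the excitatory, 28 of the newborn, 22 of the radial glia and 10 of the interneuron gate. In the excitatory gate cells of pool 2 alone, the median over the pairs of the 10 genes was 0.24. The part of this mixture in the correlations was not tested. The median of the 10 genes lay above 77.1% of all pairs in pool 1 and 79.0% in pool 2.

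Camk2b had the strongest partners, with correlations of 0.36 in pool 1 and 0.55 in pool 2 with Msra and 0.39 and 0.50 with Gap43. Mef2c went with Gap43 (0.45 and 0.38) and Camk2b (0.46 and 0.32), and with Nell2 at 0.24 and 0.37. Nell2 and Ntm, the secreted cue and the surface protein, had 0.36 and 0.40. The 4 pairs with the lowest mean over both pools were Ralyl and Serp2 (0.16 in pool 1 and 0.07 in pool 2), Fam19a2 and Serp2 (0.13 and 0.12), Fam19a2 and Gap43 (0.14 and 0.15), and Mef2c and Serp2 (0.28 and 0.03). In pool 1 the 99 Neurod6 cells with Mef2c above the floor had a mean of 6.84 of the other 9 genes, against 5.09 in the 11 cells with Mef2c at the floor. The same means were 6.83 and 5.74 in pool 2, from 65 and 19 cells. Cells with Mef2c above the floor also had more features detected (medians of 4172 and 3669 in pool 1, and of 4020 and 3791 in pool 2).

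**Figure D4:**
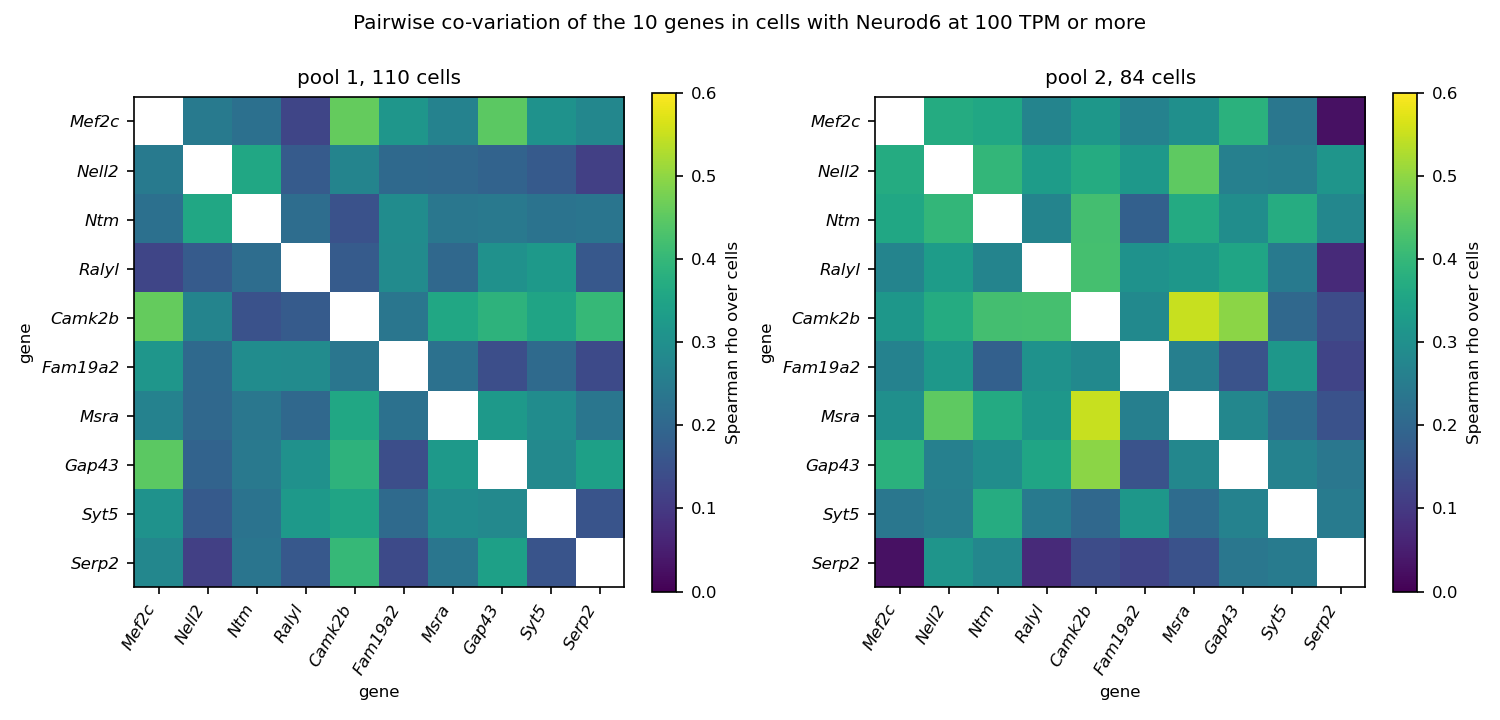
Spearman correlation between each pair of the 10 genes over the cells with Neurod6 at 100 TPM or more, in pool 1 (110 cells) and pool 2 (84 cells), on a colour scale of 0 to 0.6. Every pair is above 0, with Camk2b and Msra the brightest pair in pool 2 (0.55) and Mef2c and Serp2 the darkest there (0.03).

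Near the Neurod6 threshold, the 4 cells just below it (50 to 100 TPM) had a median of 5 of the 10 genes above the floor, and the 4 cells just above it (100 to 200 TPM) a median of 7.5. Mef2c had medians of 71.6 TPM just above and 12.7 TPM just below, and Nell2 had 74.8 and 1.81 TPM. The highest median, 9 of the 10 genes, was in the 56 cells with Neurod6 of 800 to 1600 TPM, and the 95 cells above 1600 TPM had a median of 7. Of the Neurod6 cells with suffix B in pool 2, 11 of 30 had Ralyl above the floor and 11 of 30 Camk2b, whereas those with suffix A had 41 and 32 of 54. In pool 1 the same counts were 42 and 36 of 59 with suffix B and 32 and 29 of 51 with suffix A.

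To name the genes that vary most like the 10, each gene detected in 30 Neurod6 cells or more was correlated with the mean rank of the 10 in every pool, and each of the 10 with the mean rank of the other 9. The 10 themselves had medians of 0.43 (pool 1) and 0.50 (pool 2), from 0.57 for Camk2b to 0.34 for Serp2 as means of both pools. All 7780 genes had medians of 0.08 and 0.13. With the number of features above the floor regressed out, the medians were 0.41 and 0.49 for the 10 genes and 0.07 and 0.12 over all genes. As the 10 were selected on correlations in these cells, their values are a description with or without that step. The highest outside the 10 were Map1b (0.60 in pool 1 and 0.68 in pool 2), Mapt (0.61 and 0.58), Uchl1 (0.64 and 0.54), Tuba1a (0.66 and 0.50) and Stmn2 (0.55 and 0.61). Dab1 (0.54 and 0.61), Gm6682 (0.66 and 0.43), Tuba1c (0.61 and 0.47), Syt4 (0.49 and 0.50) and Macrod2 (0.48 and 0.50) followed. Map1b and Mapt bind microtubules in axons, and Dab1 passes on the reelin signal. Tuba1a and Tuba1c are near-identical tubulin genes whose reads the counting may split, so their values are uncertain.

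At the other end, the lowest 5 were Fabp7 (-0.41 in pool 1 and -0.56 in pool 2), Mdk (-0.43 and -0.46), H3f3b (-0.56 and -0.33), H2afv (-0.44 and -0.42) and Cdk2ap1 (-0.48 and -0.38). Fabp7 is the fatty acid binding protein of radial glia, and Mdk encodes the growth factor midkine. The cells correlated included 22 of the radial glia gate, and the part of such class differences in the highest and lowest values was not tested. By list, 13 of 13 axon growth genes and 21 of 22 synapse and calcium signalling genes had a positive mean correlation with the 10, compared with 80.0% of all genes. Their medians were 0.34 and 0.37 for axon growth and 0.22 and 0.27 for synapse and calcium signalling in pools 1 and 2. Of the 12 newborn and migrating neuron genes 3 were positive, with medians of -0.14 and -0.04. For Mef2c alone, Map1b and Mapt were again the nearest genes (0.54 and 0.49 in pool 1).

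**Figure D5:**
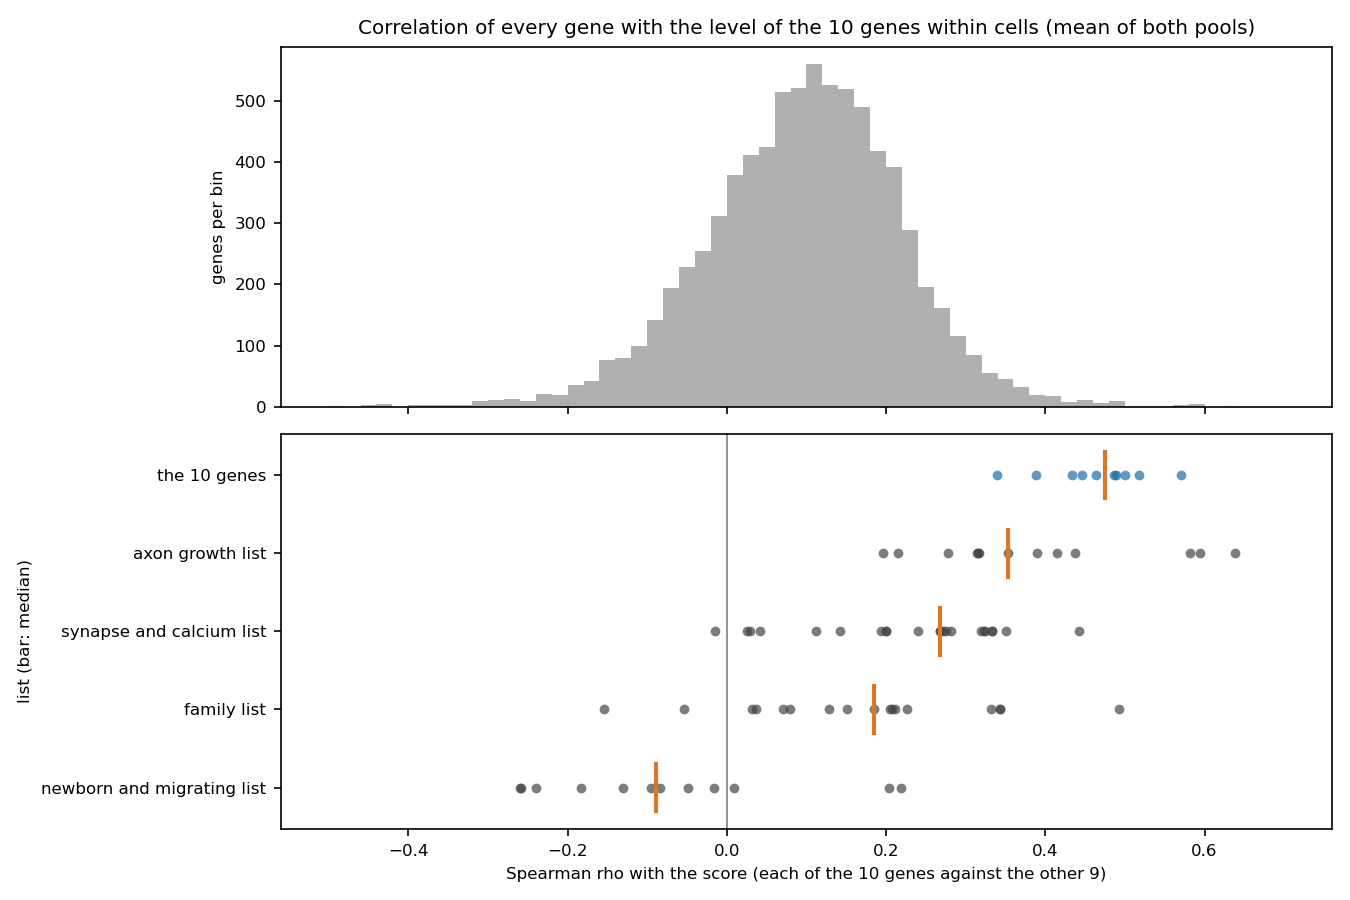
Upper panel, number of genes (of 7780) by their Spearman correlation with the mean rank of the 10 genes, averaged over both pools. Lower panel, the same correlation for the 10 genes (each against the other 9) and for 4 lists, 1 point per gene with the median as an orange bar; the newborn and migrating list is the only one of these with a median below 0.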

How the data were processed

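Single-cell RNA was measured in 221 cells from 2 pools. The submitters' processing notes name Cufflinks 2.2.1, TopHat2 2.0.14 and Bowtie2 2.2.6, and the mm10 build, and the deposited table holds TPM values, made by the authors, which sum to 1000000 per cell. Whether the counting used strand is not given in the sources used here. The TPM hold no read counts, so no count model was used. The highest correlation between any 2 cells was 0.734, so none was a copy of another. No doublet caller was run.

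The 10 genes, the gates and the lists were chosen with earlier results of these data known. The lists held 130 genes, of which 128 were analysed. The log2(TPM + 1) values of a class were averaged per pool (at least 5 cells), and limma 3.58.1 in R 4.3.3 was run on 8 profiles with 4 residual degrees of freedom (trend and robust, two-sided, Benjamini-Hochberg over all 10726 genes detected in 10 cells or more; 21 genes, the gate genes among them, were left out). A further planned comparison within the excitatory gate is not reported here. Fold changes on this scale understate the change of low genes. A gene was called where the log2 difference was 1 or more in size and the adjusted p was below 0.05. The fit was tested on simulated data with changes larger than most differences of the 10 genes, so that test does not cover changes of their size. Classes of a pool share the same 8 embryos, so the pool pairs them by design, although the correlation of their deviations across genes was only -0.02 to 0.05. Outside the 10, the genes named are all relatives, the called list genes (up to 3 in each direction with the largest difference), and the 10 most and 5 least alike. Names were matched through RefSeq synonyms (Map1b is Mtap1b in the table).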

Additional observations from a re-analysis of the deposited data

How the results depend on the processing

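In place of the 320 genes called between the excitatory and radial glia gates, limma called 33 with the log2 of the mean TPM, 174 with gates at 50 TPM, 0 with gates at 200 TPM, 191 with quantile normalization, 0 in the cells between the quartiles of features above the floor (mid-depth cells) and 875 with weighted profiles, and 0 to 8 of the 10 genes were called. Between the excitatory and interneuron gates the 64 calls became 42 with a pseudocount of 10, 8 with the log2 of the mean TPM, 151 at 50 TPM, 0 at 200 TPM, 0 without Neurod6 cells and 180 with weighted profiles, with 0 to 5 of the 10 called. Of these calls 50% were higher, against 25.8% with quantile normalization, 100% with the log2 of the mean TPM, 65.6% at 50 TPM and 65% with weighted profiles; for radial glia it was 12.8%, against 27.3% with the log2 of the mean TPM and 23.9% with weighted profiles. Where 0 were called, 13.6% of genes (radial glia, 200 TPM), 12.8% (mid-depth) and 11.1% (interneurons, 200 TPM) had an unadjusted p below 0.05. Against the newborn gate, weighted profiles gave 27. With the pool as a replicate block the counts were 340, 82 and 0, and the block changed no other call of the 10 than that of Serp2.

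The sign reversed for Ralyl against radial glia in mid-depth cells (-0.36) and for Mef2c against interneurons at 200 TPM (0.91). The cause was not tested. The median pairwise correlation of the 10 genes was 0.203 with suffix A and 0.292 with suffix B in pool 1, and in pool 2 it was 0.326 with suffix A, 0.184 with suffix B and 0.24 in excitatory gate cells alone. Too few cells allowed no fit without Neurod6 cells against radial glia or newborn neurons, at 200 TPM or in mid-depth cells against newborn neurons, or in mid-depth cells against interneurons. With 1 pool left out, differences are values without a test. Low values and absence cannot be told apart at this depth.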
